A study of Mus musculus with 15 samples.

Results

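Small heat shock proteins and the cytosolic HSP70/HSP90 chaperones were examined in neural stem cells cultured from the subventricular zone of adult mice. The 9 genes are Hspb8, Cryab and Hspb1, which are small heat shock proteins, and Hspa8, Hsph1, Hsp90aa1, Hsp90ab1, Dnajb1 and Bag3, which belong to the HSP70/HSP90 system. They were chosen from earlier results of these same arrays, in which differences between the 3 groups had been seen, so their differences and calls are given here as a description and support nothing. Members were found as probe sets whose annotation held exactly 1 of these gene symbols. That gave 20 of the 22690 probe sets of the array, for 8 of the 9 genes. Hsp90ab1 had no such probe set and was not analysed here. All 8 genes passed the filter on low levels and were among the 7909 genes tested.

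The study used 15 Affymetrix arrays, 5 for each of 3 groups of cells from C57Bl6/J female mice aged 6 months, grown as neurospheres and used at passages 5 to 7. Undifferentiated cells were kept with the growth factors bFGF and EGF. The cells of the 12 h and 24 h groups had been without growth factors for that time, in 5% serum on poly-D-lysine, so the 3 changes of condition came together and cannot be told apart. The labels do not say whether samples of a group were separate cultures, so errors and p-values measure only the spread between samples, which may be technical.

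Small heat shock proteins are holdases: without using ATP they form oligomers that bind partly unfolded proteins and keep them from aggregating. HSP70 proteins refold such clients in a cycle of ATP hydrolysis, in which J-domain proteins deliver the client and start hydrolysis, and nucleotide exchange factors release it. HSP90 takes over clients such as kinases and steroid receptors for late steps of folding. Genes of both arms can be driven by heat shock factor 1, which binds arrays of GAA units in alternating orientation, and some small heat shock proteins are also expressed without stress in muscle, lens and glia.

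Values are given on a log2 scale, made from deposited values that were read as log10, and a level is the value of a single probe set on an array. Where a gene had several probe sets, the one of highest mean level stood for the gene. A gene was called when its adjusted p was under 0.05 in the limma fit over all genes (Benjamini-Hochberg), and errors of differences are standard errors of that fit (n = 5 arrays per group).

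Conflicts between labels and arrays that stand apart touch these results. The array code in the title differed from that in the description for 13 of 15 samples, and 8 samples would change their group under the description code; groups follow the titles. With groups by the description code, limma called 0 genes in each comparison, while 81 genes at 12 h, 118 at 24 h and 21 between the times had an unadjusted p under 0.05. Title codes end in 1 of 3 suffixes, here A, B and C, which were taken as a batch. The 12 h replicate 1 stood with undifferentiated cells for the smooth muscle actin Acta2, whose log2 level was 2.41 there and 6.21 to 7.12 on the other 12 h arrays. Its description code puts that array in the undifferentiated group. The same holds for 12 h replicate 4, where Acta2 was at 7.07, and whether a label is wrong was not tested. The 3'/5' signal ratio of beta-actin, which reads RNA integrity and labelling, averaged 2.36 ± 0.148 at 12 h, against 1.95 ± 0.238 in undifferentiated cells (SD over 5 arrays per group). The two-sided exact permutation test gave p = 0.0159, or 0.0476 after adjustment over 6 tests. At 24 h it averaged 2.78 ± 0.365 (SD over 5 arrays; p = 0.00794 against undifferentiated cells by the same exact permutation test, adjusted p = 0.0476). The 3'/5' ratio of Gapdh averaged 1.29 ± 0.0772 at 12 h and 1.34 ± 0.0788 at 24 h, against 1.19 ± 0.207 in undifferentiated cells (SD over 5 arrays). By the same exact permutation test p was 0.341 and 0.151 (adjusted p = 0.341 and 0.226), so neither passed. With the beta-actin ratio as a covariate, limma called none of the 8 genes. Over all 7909 genes that fit called 120 higher and 50 lower at 12 h, against 261 and 361 without the covariate. At 24 h it called 26 and 8, against 1003 and 1533, so 0 of 8 is not particular to these genes. The ratio itself differed between groups, and the part of RNA quality in the differences of the 8 genes was not tested further.

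Promoter windows from RefSeq (GRCm38.p6, 250 bases before to 50 after a gene's start) were at hand for Hspb1, Hspb8, Hsph1, Dnajb1 and Bag3, with 2 windows each for Hsph1 and Dnajb1. They were searched for pairs of GAA units, GAANNTTC or TTCNNGAA, and for 3 units in a row, GAANNTTCNNGAA or TTCNNGAANNTTC; each pair reads the same on both strands, the 2 runs of 3 units are each other's reverse complement, and a run of 3 holds 2 overlapping pairs. The stretches with a match are shown because they are the letters that heat shock factors can read, with the matches in capitals and the strand of the gene printed.
Hspb1: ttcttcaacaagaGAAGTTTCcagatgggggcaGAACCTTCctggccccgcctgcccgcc
Hspb8: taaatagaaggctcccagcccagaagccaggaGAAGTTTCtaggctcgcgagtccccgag
Hsph1 upstream: agaatctTTCTCGAAggctcgagaagaagg
Hsph1 downstream: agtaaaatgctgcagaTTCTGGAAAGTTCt
Bag3: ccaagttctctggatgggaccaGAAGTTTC

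The Hspb1 stretch lies at chr5:135887789-135887848 on the plus strand, from 130 to 71 bases before the start. The Hspb8 stretch lies at chr5:116422835-116422894 on the minus strand and spans the start, with its match beginning at base 3 of the transcript. The Hsph1 stretches lie at chr5:149636347-149636376 and chr5:149636287-149636316 on the minus strand, and the second holds the run of 3 units. For Hsph1, upstream and downstream are counted from the start of its first window. That start and both stretches lie inside the gene's annotated extent, chr5:149616843-149636498. The Bag3 stretch lies at chr7:128523603-128523632 on the plus strand, after the start. Neither Dnajb1 window held a match. Of all 32851 windows, 15.1% held a pair and 0.603% a run of 3, so a pair is a common match. A match is a description of letters and not evidence of binding, and its absence covers only these windows.

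At 12 h, 2 of the 8 genes were called higher than in undifferentiated cells, Hspb8 and Hspb1, and 0 were called lower. Over all 7909 genes 3.3% were called higher and 4.56% lower. At 24 h, Hspb8 and Cryab were called higher and 0 of 8 lower, against 12.7% and 19.4% of all genes. Between 24 h and 12 h, 0 of 8 were called in either direction, against 0.0632% higher and 0.354% lower over all genes. All 4 calls fell on small heat shock proteins and none on the 5 measured genes of the HSP70/HSP90 system. Because the genes were chosen on these contrasts, nothing is read from those shares.

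**Figure D1:**
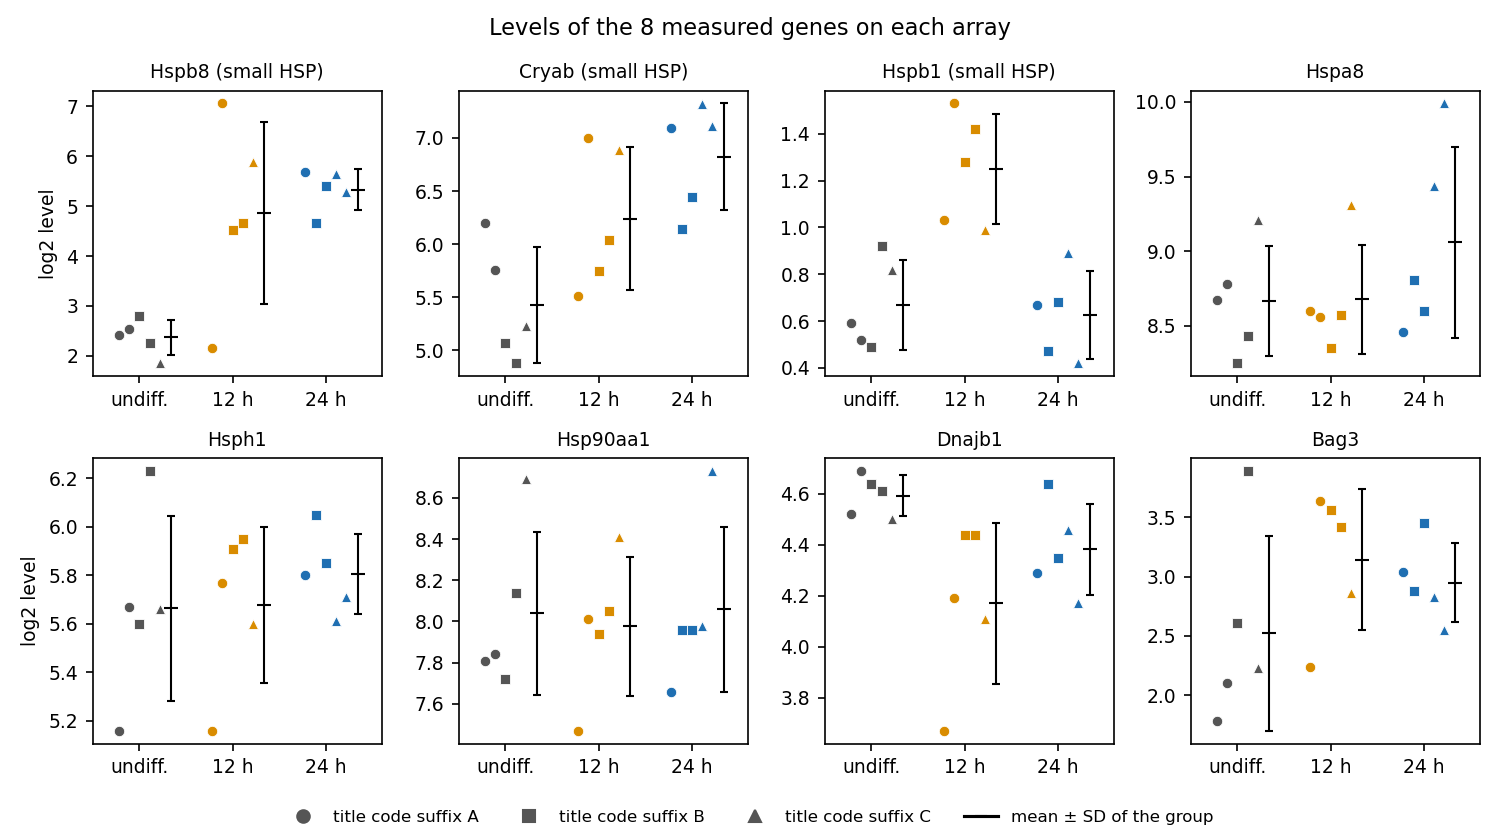
Log2 level (vertical axis, own scale per panel) of each of the 8 measured genes on the 15 arrays, for undifferentiated cells, 12 h and 24 h; each point is an array, its shape the suffix of the title code, and the bar is the mean ± SD of the group (n = 5). Hspb8 lies between 1.85 and 2.80 in undifferentiated cells, with 1 of 5 arrays at 12 h in that range (2.16) and all 5 arrays at 24 h above it (4.66 to 5.68).

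Hspb8 encodes a small heat shock protein that works with the cochaperone Bag3 to pass misfolded proteins to autophagy. Its log2 levels in replicates 1 to 5 were 2.41, 2.53, 2.80, 2.25 and 1.85 in undifferentiated cells, 2.16, 7.06, 4.53, 4.67 and 5.88 at 12 h, and 5.68, 4.66, 5.40, 5.64 and 5.28 at 24 h. Every 24 h array was above every undifferentiated array. At 12 h, 4 arrays were above that range and replicate 1 was inside it. The mean was 4.86 ± 1.83 at 12 h and 2.37 ± 0.35 in undifferentiated cells (SD, n = 5 each), a log2 difference of 2.49 ± 0.60, or 5.63-fold. At 24 h the mean was 5.33 ± 0.41, a difference from undifferentiated cells of 2.96 ± 0.60, or 7.81-fold. Both differences passed in the limma fit over all genes. The 24 h and 12 h means differed by 0.47 ± 0.60, which did not pass.

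Replicate 1 was the lowest 12 h array by a wide gap. Without it the 12 h mean was 5.53 ± 1.18 (SD, n = 4), and the lowest array was 4.53. The difference from undifferentiated cells was then 3.17. The other probe sets of Hspb8 had the same sign: the log2 difference was 1.88 ± 0.49 at 12 h and 2.07 ± 0.49 at 24 h for 1417014_at, and 1.06 ± 0.34 and 1.37 ± 0.34 for 1456434_x_at. Within the title suffixes A, B and C the 12 h difference was 2.14, 2.07 and 4.03, and the 24 h difference 3.21, 2.50 and 3.61. With the actin ratio as a covariate it was 2.36 at 12 h and 2.70 at 24 h, and neither passed.

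Cryab encodes alphaB-crystallin, a small heat shock protein of lens, muscle and glia that binds desmin and GFAP filaments. Its log2 levels were 6.20, 5.76, 5.07, 4.88 and 5.23 in undifferentiated cells, 5.51, 7.00, 5.75, 6.04 and 6.89 at 12 h, and 7.09, 6.14, 6.44, 7.32 and 7.11 at 24 h. The groups overlapped at both times, at 24 h by 1 array on each side (6.14 at 24 h, 6.20 in undifferentiated cells). The mean was 6.82 ± 0.50 at 24 h and 5.43 ± 0.54 in undifferentiated cells (SD, n = 5 each), a log2 difference of 1.39 ± 0.33, or 2.63-fold, which passed. At 12 h the mean was 6.24 ± 0.67 and the difference 0.81 ± 0.33, which did not pass, but passed with the suffix as a block, and when arrays of consecutive title codes formed a random block. The 24 h and 12 h means differed by 0.58 ± 0.33, which did not pass either.

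Of the other Cryab probe sets, 1416455_a_at had a log2 difference of 0.69 ± 0.49 at 12 h and 1.08 ± 0.49 at 24 h. The third, 1435837_at, averaged -0.69 over all arrays and sat below the filter level in every group. Within suffixes A, B and C the 12 h difference of Cryab was 0.27, 0.92 and 1.66, and the 24 h difference 1.11, 1.32 and 1.99. At 12 h Cryab was called in 0 of 15 fits with 1 array left out. With the actin ratio as a covariate the 24 h difference was 1.35 and did not pass.

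Hspb1 encodes HSP27 (HSP25 in the mouse), a small heat shock protein that also caps and stabilises actin filaments. Its log2 levels were 0.59, 0.52, 0.49, 0.92 and 0.82 in undifferentiated cells, 1.03, 1.53, 1.28, 1.42 and 0.99 at 12 h, and 0.67, 0.47, 0.68, 0.89 and 0.42 at 24 h. Every 12 h array was above every array of the other groups, and the 24 h and undifferentiated arrays overlapped. The mean was 1.25 ± 0.24 at 12 h and 0.67 ± 0.19 in undifferentiated cells (SD, n = 5 each), a log2 difference of 0.58 ± 0.13, which passed. At 24 h the mean was 0.63 ± 0.19 and the difference -0.04 ± 0.13, which did not pass and turned to 0.10 when each array was centred on its median. The 24 h mean was below that at 12 h by a log2 difference of -0.62 ± 0.13, which did not pass, although those groups did not overlap.

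The levels of Hspb1 lay close to the filter level of 0.51, so its values were measured near the low end of the array. Its other probe set, 1425964_x_at, lay below the filter and had log2 differences of 0.47 ± 0.14 at 12 h and -0.24 ± 0.14 at 24 h. Within suffixes A, B and C the 12 h difference was 0.72, 0.64 and 0.17, and that between 24 h and 12 h was -0.61, -0.77 and -0.34. The difference between 24 h and 12 h passed with the suffix as a block. Without a block Hspb1 was called higher at 12 h and Cryab was not, while with either block both were; at 24 h only Cryab of this pair was called. Whether their time courses differ was not tested.

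The rest of the small heat shock protein family was at or near the floor. Of 9 family genes listed, 7 had a probe set, and Hspb2, Hspb3, Hspb7 and Cryaa had mean log2 levels of 0.0018, -0.14, -0.63 and -0.82 over all arrays, below the filter. Hspb6 and Hspb9 had no probe set named for them here.

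The constitutive HSP70 Hspa8, which folds new proteins and uncoats clathrin vesicles, was called at neither time. Its log2 levels were 8.67, 8.78, 8.25, 8.43 and 9.21 in undifferentiated cells, 8.60, 8.56, 8.35, 8.57 and 9.31 at 12 h, and 8.46, 8.81, 8.60, 9.44 and 9.99 at 24 h. The high arrays were the 4 of suffix C in every group, and the groups overlapped. The log2 difference from undifferentiated cells was 0.01 ± 0.29 at 12 h and 0.39 ± 0.29 at 24 h, and the second was -0.0053 after quantile normalisation. This probe set is of a kind that can bind near-identical copies of the gene, so its level is uncertain. The probe set 1420623_x_at, of the same kind, had differences of 0.10 ± 0.25 at 12 h and 0.34 ± 0.25 at 24 h. For 1420622_a_at they were -0.04 at both times, and for the dim 1431182_at 0.10 ± 0.15 and 0.12 ± 0.15.

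Hsph1, an HSP110 protein that acts as a nucleotide exchange factor of HSP70, ranged from 5.16 to 6.23 in undifferentiated cells, from 5.16 to 5.95 at 12 h and from 5.61 to 6.05 at 24 h. The log2 difference from undifferentiated cells was 0.01 ± 0.18 at 12 h and 0.14 ± 0.18 at 24 h. Its second probe set, 1423566_a_at, had differences of 0.24 ± 0.27 and 0.11 ± 0.27. The groups overlapped over most of their range.

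Dnajb1 encodes HSP40, the J-domain protein that brings unfolded clients to HSP70. Its log2 levels were 4.52, 4.69, 4.64, 4.61 and 4.50 in undifferentiated cells, 3.67, 4.19, 4.44, 4.44 and 4.11 at 12 h, and 4.29, 4.64, 4.35, 4.46 and 4.17 at 24 h. Every 12 h array was below every undifferentiated array, and the 24 h arrays overlapped both groups. The difference from undifferentiated cells was -0.42 ± 0.14 at 12 h and -0.21 ± 0.14 at 24 h, and neither passed. With the suffix as a block, Dnajb1 was called lower at 12 h. The second probe set, 1416756_at, had differences of -0.57 ± 0.21 and -0.51 ± 0.21, so both probe sets lay on the negative side at both times.

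Bag3, the nucleotide exchange factor that pairs with Hspb8 in chaperone-assisted autophagy, had log2 levels of 1.78, 2.10, 2.61, 3.89 and 2.23 in undifferentiated cells, 2.24, 3.64, 3.56, 3.42 and 2.86 at 12 h, and 3.04, 2.88, 3.45, 2.83 and 2.55 at 24 h. Replicate 4 of undifferentiated cells was the highest array of all, and 4 of the 5 arrays of that group lay under the median of the 12 h group. The log2 difference was 0.62 ± 0.35 at 12 h and 0.43 ± 0.35 at 24 h, and neither passed. Missing the threshold does not show that Bag3 stayed level, and no second probe set was there to compare.

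Hsp90aa1, the inducible cytosolic HSP90, ranged from 7.72 to 8.69 in undifferentiated cells, from 7.47 to 8.41 at 12 h and from 7.66 to 8.73 at 24 h on its brightest probe set, 1438902_a_at. Its log2 difference was -0.06 ± 0.23 at 12 h and 0.02 ± 0.23 at 24 h, and the groups overlapped throughout. The other probe sets did not give the same value. For 1426645_at the difference was 0.01 ± 0.25 at 12 h and -0.41 ± 0.25 at 24 h. For 1437497_a_at it was -0.66 ± 0.63 and -1.39 ± 0.63.

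The levels of 1437497_a_at were 6.80, 6.86, 6.52, 6.27 and 3.73 in undifferentiated cells, 5.93, 5.78, 6.06, 5.48 and 3.65 at 12 h, and 5.91, 5.44, 4.88, 3.28 and 3.75 at 24 h. The 4 arrays of suffix C were the 4 lowest, from 3.28 to 3.75, in whichever group they fell, and 2 of them are 24 h arrays against 1 in each other group. On the brightest probe set the suffix C arrays included the highest level of every group, so these arrays were low on one probe set of the gene and, but for 24 h replicate 4 at 7.98, high on another.

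**Figure D2:**
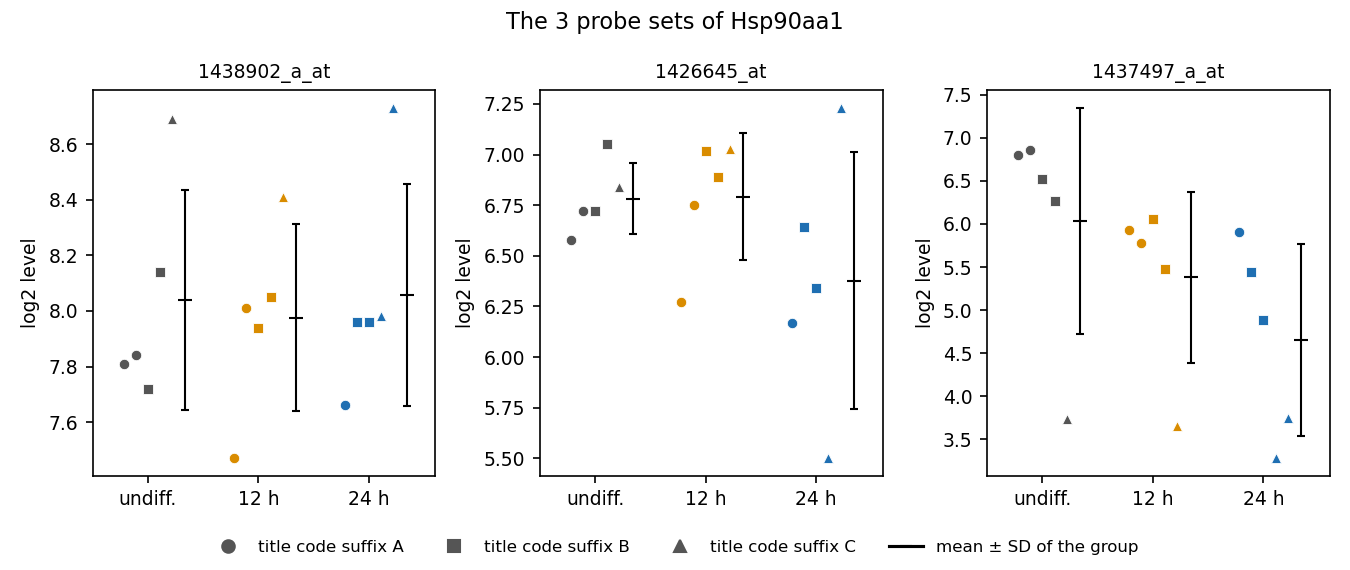
Log2 level (vertical axis, own scale per panel) of the 3 probe sets of Hsp90aa1 on the 15 arrays by group, with the suffix of the title code as the shape of the point and the mean ± SD as the bar (n = 5). The triangles of suffix C lie at 3.28 to 3.75 on 1437497_a_at, under all other arrays of that probe set, and include the highest point of each group on 1438902_a_at.

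Groups that do not overlap were counted as well. Between 12 h and undifferentiated cells 2 of the 8 genes did not overlap, Hspb1 and Dnajb1, against 8.16% of all genes. Between 24 h and undifferentiated cells it was Hspb8, against 25.1% of all genes, and between 24 h and 12 h it was Hspb1, against 2.92%.

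The median log2 difference of the 3 small heat shock proteins was 0.81 at 12 h and 1.39 at 24 h. That of the 5 genes of the HSP70/HSP90 system was 0.01 at 12 h, in a range from -0.42 for Dnajb1 to 0.62 for Bag3, and 0.14 at 24 h, in a range from -0.21 to 0.43. Over all genes tested the median was 0.0045 at 12 h and -0.060 at 24 h, the second being 0.085 when arrays were centred on their medians. Differences near 0 therefore have no settled sign here. Both comparisons share the undifferentiated arrays.

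**Figure D3:**
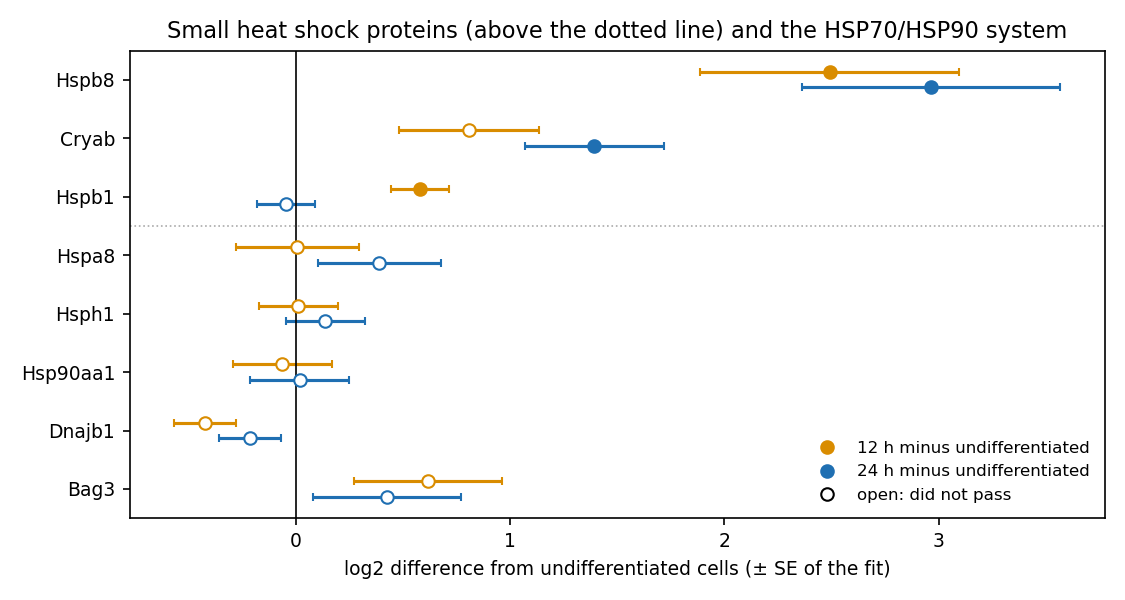
Log2 difference from undifferentiated cells (horizontal axis, ± SE of the limma fit, n = 5 arrays per group) of the 8 measured genes at 12 h and 24 h; filled points passed in the fit over all genes and open points did not. The filled points are Hspb8 at both times, Cryab at 24 h and Hspb1 at 12 h, and all points of the HSP70/HSP90 system lie between -0.42 and 0.62.

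The arms were also set against each other on each array, as the mean log2 level of the 3 small heat shock proteins minus that of the 5 system genes. Its own size depends on the probes, and only its change between groups can be read, which no scaling of whole arrays alters. The value was -2.52, -2.88, -2.98, -3.57 and -3.43 in undifferentiated cells, -2.53, -0.84, -2.19, -2.04 and -1.47 at 12 h, and -1.37, -2.31, -1.87, -1.45 and -1.96 at 24 h. All 24 h arrays and 4 of the 5 at 12 h were above the undifferentiated arrays, and 12 h replicate 1 lay just inside their range. The group means were -1.81 ± 0.67 at 12 h and -3.08 ± 0.43 in undifferentiated cells (SD, n = 5 each), which differ by 1.26, or by 1.44 without 12 h replicate 1. At 24 h the mean was -1.79 ± 0.39, which differs from undifferentiated cells by 1.29 and from 12 h by 0.022. The 3 small heat shock proteins did not move alike. At 24 h the log2 differences from undifferentiated cells were 2.96 for Hspb8, 1.39 for Cryab and -0.04 for Hspb1, so Hspb8 weighs most. Between 24 h and 12 h they were 0.47, 0.58 and -0.62, so the 0.022 joins changes of opposite sign. No test is given, since the genes were chosen for their differences.

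**Figure D4:**
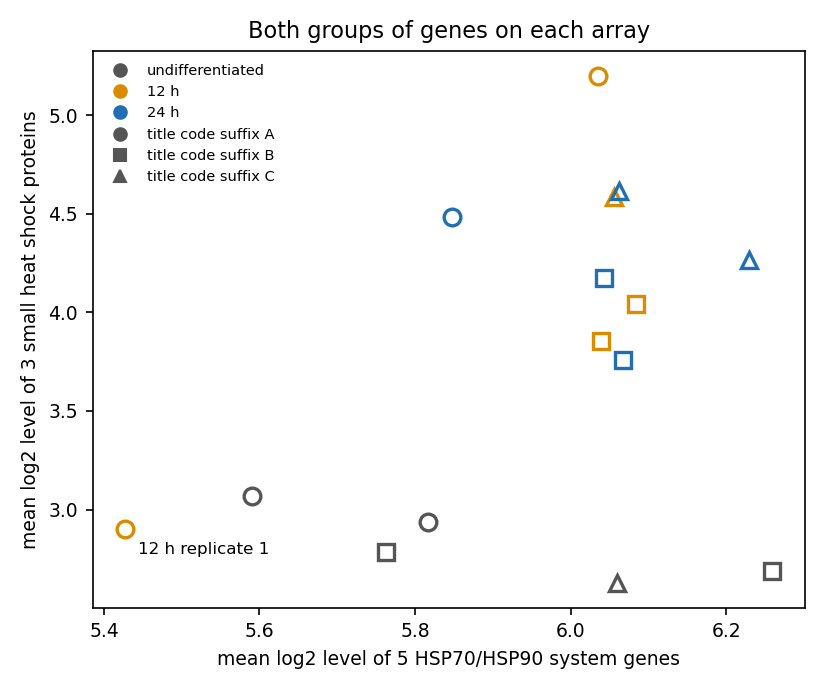
Mean log2 level of the 3 small heat shock proteins (vertical axis) against that of the 5 HSP70/HSP90 system genes (horizontal axis), 1 point per array, with colour for the group and shape for the suffix of the title code. Only 12 h replicate 1 lies beside the undifferentiated arrays, low on both axes, and the other 9 differentiated arrays lie above all undifferentiated arrays over the same horizontal range.

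Among these genes after centring each array on its median, the closest pairs over the 15 arrays were Hspa8 with Hsp90aa1 (Pearson r = 0.868) and Hspb8 with Cryab (r = 0.839). Hsph1 and Bag3 were each other's closest member (r = 0.694). Hspb1 was not close to the other small heat shock proteins, with r = 0.438 for Hspb8 and 0.312 for Cryab, and its closest member was Bag3 (r = 0.486). These values mix differences between groups with those between arrays of a group, and pairs share the suffix of the arrays.

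Hspb8 weighs most in the mean profile of the small heat shock proteins, as its levels had the widest range (1.85 to 7.06). Of all tested genes outside the 8, the one with the highest r to that mean profile was picked. It was Id3, an inhibitor of bHLH transcription factors. Pearson's r was 0.975 over 15 arrays and 0.978 without 12 h replicate 1 (n = 14). For the deviations of all 15 arrays from their group means, 12 h replicate 1 included, it was 0.943. The log2 level of Id3 was 4.65 in 12 h replicate 1 and 7.08 to 8.34 on the other 12 h arrays, so Id3 and Hspb8 were low on the same 12 h array. Fbxo2 (r = 0.935), which binds glycoproteins for ubiquitination, and Hcfc1r1 (r = 0.932) came next. The profile of the HSP70/HSP90 system was most like Srsf1 (r = 0.936), a splicing factor, Capza1 (r = 0.930), an actin capping subunit, and Slc25a46 (r = 0.928), a mitochondrial outer membrane protein, which fell to 0.868, 0.870 and 0.857 without the 2 farthest arrays (n = 13).

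The families around these genes were read from lists, by counts and medians with no test of the list. Named list genes are those with the smallest p among the called ones, at most 2 per direction, and their log2 differences come with the adjusted p of limma. Where the actin ratio was a covariate, only the 12 h falls of Dnajc9 and Hspe1 passed among them, and with groups by the description code none did. Over all genes the fit with that covariate left 120 higher and 50 lower at 12 h, and 26 and 8 at 24 h. The counts of each list stand beside 3.3% higher and 4.56% lower of all genes at 12 h, and 12.7% and 19.4% at 24 h, and nothing particular to a list is read from them.

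Of 8 tested cytosolic HSP70 and HSP110 genes, 2 rose and 2 fell at 24 h, with a median log2 difference of 0.34. The count was 4 higher and 1 lower with arrays centred on their medians and after quantile normalisation. Hspa2, an HSP70 best known from the testis, averaged 3.43 ± 0.20 at 24 h and 1.81 ± 0.27 in undifferentiated cells (SD, n = 5 each), and rose by 1.62 ± 0.22 (limma adjusted p = 0.00019). At 12 h it rose by 0.82 ± 0.22 (adjusted p = 0.0338), a call that held in 8 of 15 fits with 1 array left out. Hspa14, an HSP70 of the ribosome-associated complex, fell by 0.69 ± 0.18 at 12 h (adjusted p = 0.0272), also held in 8 of 15 such fits, and by 0.87 ± 0.18 at 24 h (adjusted p = 0.00204).

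The stress-inducible HSP70 Hspa1a had low levels, 0.69 ± 0.21 at 24 h and 0.32 ± 0.15 in undifferentiated cells (SD, n = 5 each). Its difference of 0.37 ± 0.13 passed at 24 h (adjusted p = 0.0411), in 8 of 15 fits with 1 array left out. Hspa4, an HSP110 protein, fell by 0.57 ± 0.21 (adjusted p = 0.0438), held in 5 of 15. The mean of Hspa1a lay below the filter level in undifferentiated cells and a little above it at 12 h (0.71) and 24 h. Hspa1a therefore passed the filter only through the 12 h and 24 h arrays, so its 24 h call is not independent of the filter.

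Among 10 tested genes of HSP90 and its cochaperones, 0 were called at 12 h and 1 rose and 3 fell at 24 h, with a median of -0.39. The steroid receptor cochaperones Fkbp5 and Fkbp4 fell by 0.81 ± 0.27 (adjusted p = 0.0329) and 0.58 ± 0.20 (adjusted p = 0.0382). The myosin chaperone Unc45a rose by 0.36 ± 0.12 (adjusted p = 0.0356). Each of these calls was lost in some fits with 1 array left out, and 1 fall passed when arrays were centred on their medians and 0 after quantile normalisation.

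Of 14 tested J-domain and related cochaperones, which here include the ubiquitin ligase Stub1 and the HSP70 cochaperone St13, 3 rose and 4 fell at 24 h, with a median of -0.11 that was 0.030 when arrays were centred, which left 3 rises and 2 falls. Dnajb4, a relative of Dnajb1, averaged 5.14 ± 0.22 at 24 h and 4.20 ± 0.21 in undifferentiated cells (SD, n = 5 each), and rose by 0.94 ± 0.18 (adjusted p = 0.00163). Dnaja4 rose by 0.54 ± 0.14 (adjusted p = 0.00893). The widest fall in the list was that of Dnajc9, a J-domain protein that also chaperones histones, which fell by 1.23 ± 0.19 at 12 h (adjusted p = 0.0033) and by 1.43 ± 0.19 at 24 h (adjusted p = 0.000177). Dnajc2, the ribosome-associated partner of Hspa14, fell by 0.73 ± 0.19 at 24 h (adjusted p = 0.00959), a call lost with arrays centred. At 12 h Dnajb2 rose by 0.54 ± 0.16 (adjusted p = 0.0438), in 3 of 15 fits with 1 array left out.

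Of 7 tested nucleotide exchange and BAG proteins, 1 rose and 2 fell at 24 h, and 0 were called at 12 h. Bag1, which couples HSP70 to the proteasome, averaged 6.10 ± 0.20 at 24 h and 5.30 ± 0.16 in undifferentiated cells (SD, n = 5 each), and rose by 0.80 ± 0.18 (adjusted p = 0.0044). Bag5 fell by 0.78 ± 0.19 (adjusted p = 0.00692) and Hspbp1, another exchange factor, by 0.74 ± 0.22 (adjusted p = 0.0177).

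Of 5 tested genes of chaperone-assisted autophagy, into which Hspb8 and Bag3 feed, 4 rose at 24 h and 0 at 12 h, with medians of 0.52 and 0.42, and with the suffix as a block 2 rose at 12 h. Map1lc3b, the LC3 protein of autophagosomes, rose by 1.09 ± 0.25 (adjusted p = 0.00408) and Wdr45, a phagophore protein, by 0.89 ± 0.23 (adjusted p = 0.00823). Without the suffix C arrays neither passed, and 1 of the 5 was called. Filamin Flnc, a client of that route in muscle, had a difference of -0.0038 ± 0.32 at 24 h.

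Intermediate filaments are clients of the small heat shock proteins, and 4 of 8 listed genes were tested. At 24 h the astrocyte filament Gfap rose by 3.35 ± 0.67 (adjusted p = 0.00196) and the progenitor filament Nes fell by 2.05 ± 0.37 (adjusted p = 0.000975). Of the heat shock factor list, only Hsf2 and the HSF1-binding protein Hsbp1 were tested, and 0 were called.

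Chaperones of other compartments were listed for comparison. Of 8 mitochondrial chaperone genes, 1 fell at 12 h and 5 fell at 24 h with 0 rising, and the 24 h median was -0.63. The HSP10 cochaperonin Hspe1 fell by 0.95 ± 0.21 at 12 h (adjusted p = 0.0147) and by 0.93 ± 0.21 at 24 h (adjusted p = 0.00353), and the mitochondrial HSP90 Trap1 fell by 0.85 ± 0.14 at 24 h (adjusted p = 0.000544). With arrays centred 3 of the 8 were called lower. Of 13 genes of the TRiC chaperonin and prefoldin, which fold actin and tubulin, 0 were called at either time, though 2 were called lower at 24 h after quantile normalisation and with the suffix as a block. Of 12 chaperones of the endoplasmic reticulum 2 rose and 2 fell at 24 h, among them Dnajb9 by 0.71 ± 0.13 (adjusted p = 0.00147) and Pdia6, which fell by 0.71 ± 0.19 (adjusted p = 0.00968). With arrays centred 1 rose and 0 fell, so the call on Pdia6 was lost.

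The 24 h calls of several lists were fewer without the suffix C arrays. Over all genes they also became fewer, from 1003 higher and 1533 lower to 516 and 612. Nothing particular to these lists is therefore read from the loss. There were then 1 rise and 1 fall among cytosolic HSP70 and HSP110 genes, 0 and 0 among HSP90 and its cochaperones, and 2 and 1 among J-domain cochaperones. Among nucleotide exchange and BAG proteins 1 rise and 0 falls were left, so Bag5 and Hspbp1 no longer passed, and among mitochondrial chaperones 0 rises and 2 falls.

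**Figure D5:**
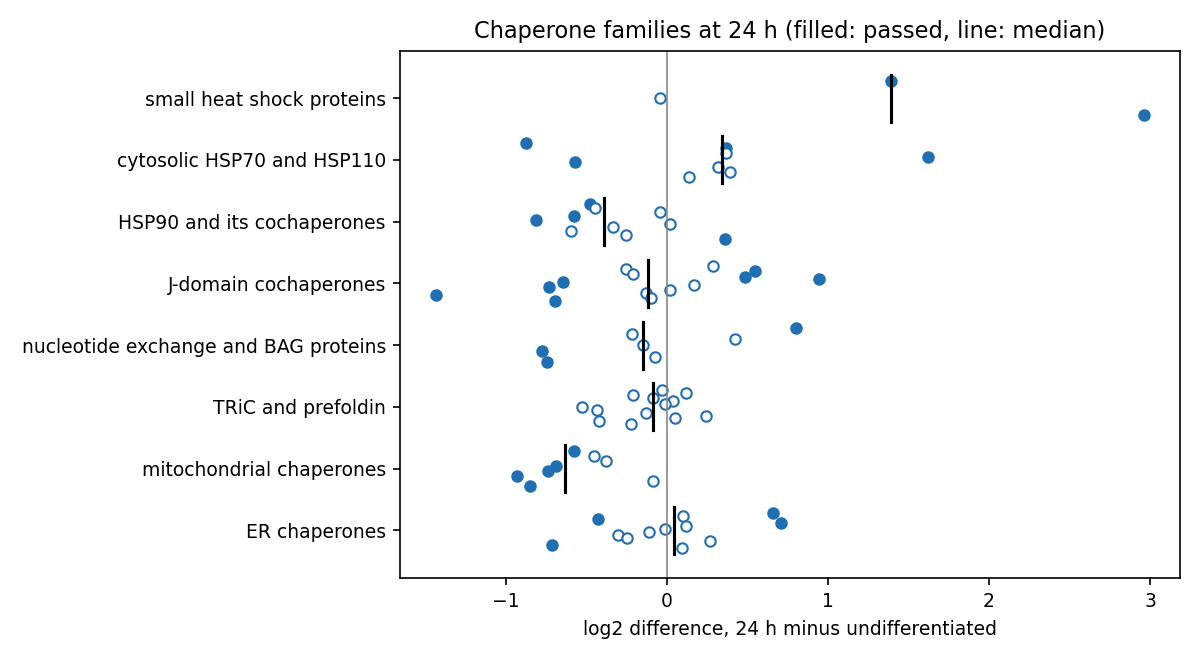
Log2 difference of 24 h minus undifferentiated cells (horizontal axis) for each tested gene of 8 chaperone lists (rows), with filled points for genes that passed in the limma fit over all genes, open points for those that did not, and a line at the list's median; vertical scatter in a row has no meaning. The medians run from -0.63 for mitochondrial chaperones to 1.39 for the 3 small heat shock proteins, which were chosen from these data.

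Markers of other cell types were summed beside these genes. Summed linear levels of 11 astrocyte genes ran from 868 to 1555 in undifferentiated cells, from 1247 to 3180 at 12 h and from 1896 to 4343 at 24 h. Of the 11, 4 rose at 12 h, and 7 rose and 1 fell at 24 h. The fall, that of Slc1a2, held in 4 of 15 fits with 1 array left out, under 0 of 3 scalings and not with the suffix as a block.

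Sums of 9 oligodendrocyte genes on the array ran from 132 to 311 in undifferentiated cells, from 151 to 1712 at 12 h and from 523 to 2354 at 24 h. The suffix C array was the highest at 12 h, and the others did not exceed 397, so the 12 h and undifferentiated ranges overlapped. Of the 8 that were tested, 0 rose at 12 h and all 8 at 24 h.

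Sums of 10 pericyte and smooth muscle genes ran from 19.9 to 28.5, from 24.0 to 237 and from 36.9 to 164 at those times, and 4 of the 10 passed the filter. Acta2 was called higher at both times, and Tagln at 12 h only. Pdgfrb was called higher at 24 h, but its mean level was -0.24 in undifferentiated cells and 0.43 at 12 h, below the filter level, so it passed the filter only through the 24 h arrays. Cspg4 had differences of -0.71 ± 0.24 at 12 h and -0.30 ± 0.24 at 24 h and did not pass. With no filter the 10 genes had a median difference of 0.019 at 24 h, with 2 called higher and 1 lower.

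Of 3 ependymal genes on the array 2 were tested, 1 of which rose at 12 h and both at 24 h. Of these, Rsph1 had a mean log2 level of 0.43 in undifferentiated cells and 0.46 at 12 h, below the filter level. Rsph1 passed the filter only through the 24 h arrays, where its mean was 0.78, so its 24 h call is not independent of the filter. Foxj1, the regulator of motile cilia, rose by 0.96 ± 0.25 at 12 h (limma adjusted p = 0.0308), in 10 of 15 fits with 1 array left out, and by 1.51 ± 0.25 at 24 h (adjusted p = 0.000649). Ependymal sums ran from 6.39 to 8.43 in undifferentiated cells, from 8.43 to 16.7 at 12 h and from 10.9 to 23.2 at 24 h.

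The 12 h array with the low Hspb8 level, replicate 1, had the lowest pericyte and smooth muscle sum of its group, 24.0 against 101 to 237 on the others. Its ependymal sum was also the lowest, 8.43 against 11.5 to 16.7, while its astrocyte sum of 2558 and its oligodendrocyte sum of 250.3 were inside the ranges of the others. A single gene can differ from its sum. On that array the log2 level of Gfap, 5.42, was inside the range of the other 12 h arrays. That of the oligodendrocyte gene Mbp, 2.37, was below theirs, 4.75 to 9.64. None of the 9 microglia or 8 endothelial markers passed the filter. In bulk RNA more cells of a type and more RNA per cell cannot be told apart, and the part of these cell types in the levels of Hspb8 and Cryab was not tested. All 8 stem and progenitor markers were above the filter, but so were all 11 astrocyte markers, so passing it does not tell these cell types apart. At 24 h 3 of the 8 stem and progenitor markers rose and 3 fell. Of 7 neuron markers 4 were tested, of which 2 rose at 24 h.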

How the data were processed

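RNA was hybridised to 15 Affymetrix mouse arrays, and the authors deposited 1 processed value on the log10 scale for each probe set of each array. MAS5 is named in the submitters' processing notes, with no version or settings. The log10 base is not stated by the authors and was taken from the hybridisation spike-ins (1.5, 5, 25 and 100 pM), whose values rose by 1.02 ± 0.0541 per log10 unit of concentration (SD over 15 arrays). Array medians ran from 0.285 to 0.451 on that scale, so offsets between arrays remain. Values were multiplied by 3.32 to give log2, with no pseudocount and no normalisation beyond that of the authors. Precision is limited by how many arrays there are.

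The platform annotation gave 1 gene symbol to 20380 of the 22626 probe sets that are not controls, several to 691 and none here to 1555. By Entrez number 20351 of the first matched a GRCm38.p6 gene, and 0 symbols were updated. The probe set with the highest mean stood for a gene, and genes above the 40th percentile of probe set means (0.51 on the log2 scale) were tested, 7909 of 12393. The main test was a single limma model (limma 3.58.1 in R 4.3.3) of all 15 arrays, with group means, a variance trend and Benjamini-Hochberg adjustment. It was tested on simulated data with independent noise on each array and no batch. Such data cannot show its error rate where arrays share a suffix. The genes, lists and alternatives were chosen with earlier results of these arrays known. All 9 genes are named whatever their result; of each list, at most 2 called genes per direction with the smallest p were named, and other named list genes were chosen after their values were seen. Alternatives changed scaling, pseudocount, filter, probe set choice, variance model, batch terms, labels and single arrays.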

Additional observations from a re-analysis of the deposited data

Results flagged for a closer look

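The log2 level of Hspa8 in 12 h replicate 5, 9.31, stood apart from the other 12 h arrays (8.35 to 8.60). The gap to the nearest array was 0.735 of the group's range, above Dixon's critical value of 0.71 for 5 samples. It was the single such value among 27 groups examined, where chance gives about 5% of groups. The array carries suffix C, as did the highest Hspa8 arrays of the other groups.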

How the results depend on the processing

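Replicate numbers were given in accession order and pair no samples, so blocks came from the title codes alone, by suffix or by runs of consecutive codes. No called value changed sign under the alternatives run, while 27 alternative values of the counts and differences that answer a comparison moved. The 2 members called higher at 12 h became 1 with the mean of probe sets (Hspb8), where Hspb1 fell below the filter and was not tested. The count became 1 with only the groups compared and 1 without suffix C (Hspb1 in both). It was 0 with a term for the actin ratio and 0 by description code. It became 3, with Cryab, with the suffix block, with runs of codes as a random block, and without 12 h replicate 1 together with the suffix block. Leaving out 1 array gave 0 to 2, with 0 without 12 h replicate 2 and 1 without undifferentiated replicate 4 or 5 or 12 h replicate 5 (Hspb1 each time). The 0 members called lower at 12 h became 1, Dnajb1, with the suffix block, with runs of codes as a random block, with 12 h replicates 3 and 4 averaged, without both, and without either (0 to 1). The 2 called higher at 24 h became 1 without suffix C (Hspb8), and 0 with the actin ratio and by description code. The 0 called lower at 24 h became 1, Hsp90aa1, with the mean of probe sets. The 0 called lower at 24 h against 12 h became 1, Hspb1, with the suffix block, the random block, without 12 h replicate 1 or 5 (0 to 1), and without 12 h replicate 1 together with the suffix block, which was chosen after seeing the data. The change in small heat shock proteins minus the system at 12 h was 0.347 by description code and 1.96 within suffix C, and at 24 h 0.137 by description code. The cause of these changes was not tested. Over all genes, the suffix block gave 632 higher and 844 lower at 12 h, 1434 and 1874 at 24 h, and 40 and 162 between the times. With runs of codes as a random block these were 633 and 825, 1332 and 1977, and 49 and 186. With only the groups compared, 168 were higher and 236 lower at 12 h, and without 12 h replicates 3 and 4 there were 752 and 1168. The actin ratio left 120 and 50 at 12 h and 26 and 8 at 24 h, and leaving out suffix C left 35 and 35, and 516 and 612. Centring on array medians gave 1431 higher and 1110 lower at 24 h, against 1003 and 1533 without it, and quantile normalisation gave 1577 and 1303 (449 and 487 at 12 h). Low signal limits Hspb1, whose levels lay near the filter.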
